A study of Mus musculus with 11 samples.

Results

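The 33 nuclear receptor genes described here encode transcription factors that are bound by lipids and other small metabolites, together with close relatives. They were chosen by gene symbol, and all 33 were among the 29307 genes listed in the count table. The RNA came from hepatic sinusoidal endothelial cells (ECs), the fenestrated cells that line the liver capillaries, of conventionally raised (CONV-R) and germ-free (GF) male C57BL/6J mice. CONV-R mice (n = 6) carried a specific pathogen-free microbiota, and GF mice (n = 5) of the same colonies were kept in sterile isolators without microbes. Per the study's methods both groups were age-matched at 10 to 12 weeks and ate the same diet. ECs were enriched with magnetic beads against CD146 and then sorted as CD31+ CD105+ CD146+ cells, and each library came from 1 mouse and was amplified from 20 ng of RNA. Per the same source GF livers gave fewer sorted cells and less RNA, so cell yield and the absence of microbes cannot be told apart, and many sorted cells were not viable.

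Nuclear receptors share a zinc finger domain that binds DNA and a pocket for a ligand. Without ligand many sit on DNA with corepressors, and binding of the ligand exchanges these for coactivators. Receptors for oxysterols, bile acids, fatty acids, retinoids, thyroid hormone and vitamin D pair with a retinoid X receptor (RXR) and read pairs of hexamer half-sites, mostly repeated head to tail, while the bile acid receptor chiefly binds inverted repeats, which were not searched for here. Gut bacteria are known to alter bile acids, fatty acids and other compounds that reach the liver in portal blood, where sinusoidal ECs are among the first cells to meet them. The comparison of GF with CONV-R mice asks whether the transcripts of these receptors differ in these cells when no microbes are present.

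The libraries held 7242717 to 16164588 counts, and the 33 genes took 0.0752% to 0.0930% of them. Levels are in CPM, read counts divided by the TMM-scaled library total of edgeR, or per kilobase of exon as RPKM where genes are compared with each other. All 20 markers of sinusoidal endothelium had counts in every library, led by *Stab2*, *Dnase1l3* and *Mrc1*, and their summed level was 46175 to 55568 CPM in CONV-R and 43343 to 61626 CPM in GF mice. The 24 hepatocyte markers summed to 41.8 to 99.5 CPM and 55.1 to 125 CPM, led by *Alb* (mean 30.1 CPM), *Apob* and *Cyp2e1*. With edgeR's quasi-likelihood test 0 of 20 hepatocyte and 0 of 20 sinusoidal markers passed the adjusted threshold, as with DESeq2 and voom, and 3 and 8 had an unadjusted p under 0.05. Over all 12905 tested genes, 7.48% passed the adjusted threshold with edgeR and 23.0% had an unadjusted p under 0.05. Summed levels of 14 Kupffer cell markers, resident macrophages of the liver, were 522 to 761 CPM in CONV-R and 658 to 1717 CPM in GF mice, with GF replicate 6 the highest, and 8 of the 13 tested rose in GF mice. The 3 highest were *Slc40a1*, *Clec4f* and *Lyz2*. *Slc40a1*, an iron exporter gene also used by other liver cells, had a mean of 435 CPM, and without it the ranges were 112 to 289 CPM and 270 to 1174 CPM. Cholangiocyte markers of the bile duct lining summed to 0.137 to 9.33 CPM in CONV-R and 13.8 to 46.5 CPM in GF mice, where *Spp1* and *Tspan8* rose, and *Krt19* was among the 3 highest. *Spp1* alone was at 0 to 8.47 CPM in CONV-R and 11.98 to 14.6 CPM in GF mice. Large vessel endothelial markers summed to 1170 to 1555 CPM and 1496 to 2725 CPM, led by *Ly6a*, *Ephb4* and *Sox17*, and *Cd34* and *Ly6a* rose. Stellate cell and fibroblast markers summed to 175 to 319 and 294 to 347 CPM, mostly *Hgf* and *Ecm1*, with *Rgs5* next. Without the first 2 the sums were 17.8 to 32.98 and 8.38 to 35.0 CPM. Lymphocyte markers (led by *Ptprc*, *Ms4a1* and *Cd79b*) summed to 21.2 to 42.0 and 21.04 to 42.9 CPM, and neutrophil and monocyte markers (led by *Ccr2*, *Csf3r* and *S100a9*) to 1.29 to 10.8 and 2.47 to 6.10 CPM. The part of these other cells in the results below was not tested. In bulk RNA, fewer cells of a type and less RNA per cell cannot be told apart.

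The retinoid receptor genes *Rarb*, *Rxra* and *Rarg*, the orphan regulator *Nr5a2* and the thyroid hormone receptor gene *Thra* were the most abundant of the 33. Per kilobase, *Rarb* led with 21.8 ± 4.95 RPKM (mean ± SD, n = 11), followed by *Nr5a2* with 18.3 ± 3.14, *Rxra* with 14.8 ± 3.46 and *Thra* with 13.4 ± 2.75 RPKM. *Rarg*, *Nr2c1* and *Nr1h2* followed at 11.4, 10.3 and 9.94 RPKM. Of all tested genes, 86.2% lay below *Rarb*, 82.9% below *Nr5a2*, 78.5% below *Rxra* and 75.9% below *Thra*, against 58.6% below *Esrrb* and 29.9% below *Nr1h3*. The ranges of these neighbours over the 11 mice overlapped: *Rarb* ran from 11.7 to 29.2 RPKM and *Nr5a2* from 12.1 to 23.9 RPKM. In all, 6 genes had at least 10 RPKM, 5 had 5 to 10, 7 had 1 to 5, and 15 were below 1 RPKM. Among the lowest, *Nr1i2* (the pregnane X receptor), *Nr1i3* (the constitutive androstane receptor) and *Ppara* (the fatty acid receptor of liver parenchyma) had 33, 20 and 19 counts over all 11 libraries.

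**Figure D1:**
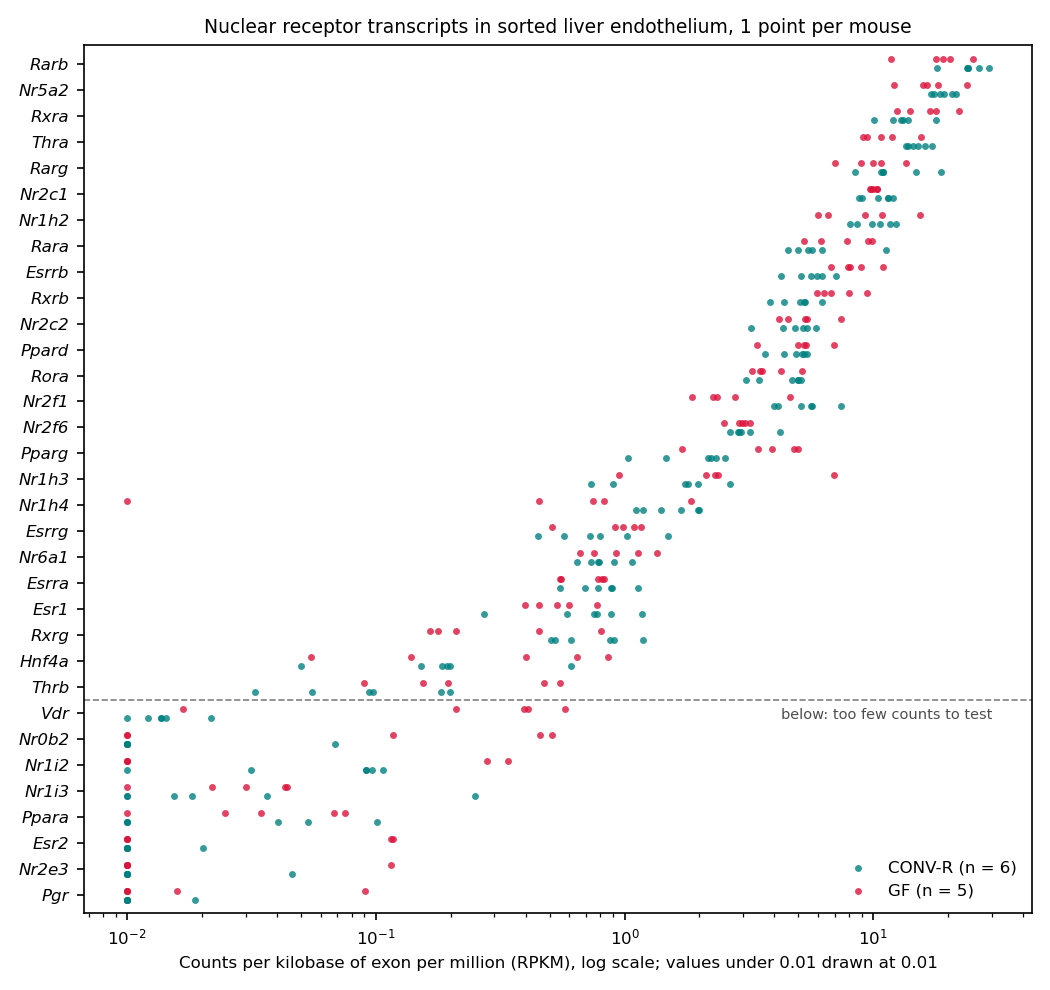
Level of the 33 nuclear receptor genes in each mouse, as RPKM on a log axis, ordered by their mean; each point is 1 of 6 CONV-R or 5 GF mice. *Rarb*, *Nr5a2* and *Rxra* stand at the top, and the 8 genes under the dashed line had too few counts for the test.

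Of the 33 genes, 25 had enough counts for edgeR's filter, and 2 of these 25 (8%) passed an adjusted p of 0.05. *Esrrb* was higher and *Nr2f1* lower in GF mice. Over all 12905 tested genes, 7.48% passed, 4.80% higher and 2.67% lower in GF mice, so the share among the receptors was near that of the genome. An unadjusted p under 0.05 was reached by 8 of the 25 (32%), against 23.0% of all genes. None of the 25 (0) had CPM ranges that did not overlap between the groups, against 5.59% of all genes. Log2FC, the log2 of the fold change of GF over CONV-R mice, was positive for 12 and negative for 13 of the 25, with a median of -0.06, against -0.01 over all tested genes. For 17 of the 25 the 95% confidence interval of the Log2FC lay within a 2-fold change in either direction. The 25 passed the filter on counts, so they are not a sample of all 33.

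**Figure D2:**
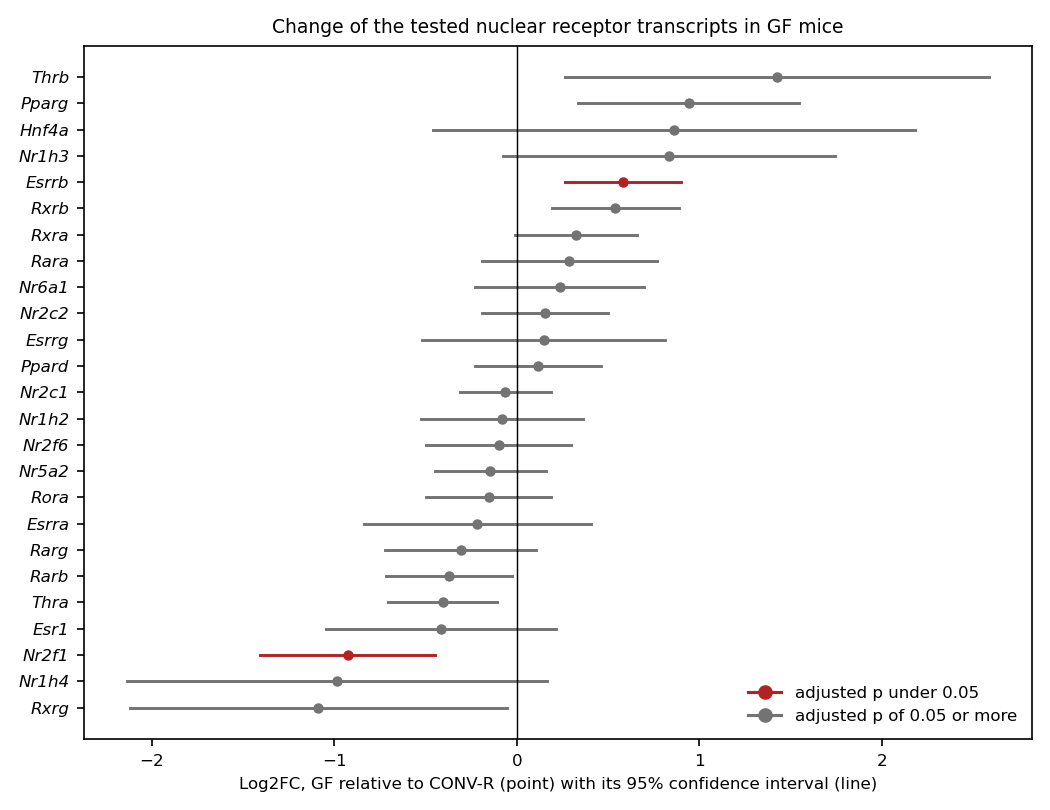
Log2FC of GF relative to CONV-R mice (points) with 95% confidence intervals (lines) for the 25 tested receptors, from edgeR's quasi-likelihood fit over all genes. *Esrrb* (0.58) and *Nr2f1* (-0.93) passed the adjusted threshold, and the widest intervals belong to weakly counted genes such as *Thrb* and *Rxrg*.

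The oestrogen-related receptor gene *Esrrb* rose in GF mice. The product is an orphan receptor best known from pluripotent stem cells, and its relatives *Esrra* and *Esrrg* drive genes of mitochondrial energy metabolism. The gene lies at chr12:86361117-86521628 on the plus strand of GRCm38. CONV-R mice held 25.8 to 42.8 CPM (median 34.8), and the GF mice held 66.2, 53.8, 48.9, 40.7 and 47.9 CPM. GF replicates 1, 2, 4 and 6 lay above every CONV-R mouse and GF replicate 5 lay below CONV-R replicate 1, so the groups overlapped. The mean of the GF group was 51.5 ± 9.46 CPM (SD, n = 5) against 34.5 ± 5.84 CPM (SD, n = 6, Log2FC 0.58, SE 0.15, adjusted p = 0.0262, edgeR's quasi-likelihood test, Benjamini-Hochberg adjusted). The call was lost, with an edgeR quasi-likelihood adjusted p of 0.0675, 0.0606, 0.0827 and 0.0551, when CONV-R replicate 4, CONV-R replicate 6, GF replicate 1 or GF replicate 2 was left out, and with limma on the authors' normalized values (adjusted p = 0.0514).

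Within the oestrogen-related family *Esrrb* was the main transcript per kilobase, with 77.1% ± 4.98 (SD, n = 6) of the summed RPKM in CONV-R and 83.7% ± 1.83 (SD, n = 5) in GF mice. *Esrra*, usually the widespread member, held 11.2% and 7.10%. Its Log2FC was -0.22 (SE 0.29) and that of *Esrrg* was 0.15 (SE 0.32), and neither passed the test. The oestrogen receptor gene *Esr1* was at 10.1 ± 4.11 CPM (SD, n = 6) in CONV-R and 7.55 ± 2.02 CPM (SD, n = 5) in GF mice, with a Log2FC of -0.42 (95% interval -1.05 to 0.21). *Esr2* and the progesterone receptor gene *Pgr* had 8 and 13 counts in all 11 libraries and were not tested.

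*Nr2f1*, which encodes the orphan receptor COUP-TFI, fell in GF mice. Its close relative *Nr2f2* (COUP-TFII) is known for setting venous identity in endothelium. *Nr2f1* lies at chr13:78188973-78199757 on the minus strand of GRCm38. CONV-R mice held 20.3 to 37.7 CPM (median 27.3), and the GF mice held 12.02, 14.2, 23.6, 9.52 and 11.5 CPM. GF replicate 4 lay within the CONV-R range, and the other GF mice lay below all CONV-R mice. The level in GF mice was 0.526 times that in CONV-R mice (Log2FC -0.93, SE 0.23, adjusted p = 0.0192, edgeR's quasi-likelihood test, Benjamini-Hochberg adjusted). Without GF replicate 6 the edgeR quasi-likelihood adjusted p was 0.0566.

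*Nr2f2* was the main COUP-TF transcript, with 84.3% ± 1.22 (SD, n = 6) of the summed RPKM of *Nr2f1*, *Nr2f2* and *Nr2f6* in CONV-R mice, and *Nr2f1* held 9.80% ± 1.65 there and 6.37% ± 1.77 (SD, n = 5) in GF mice. *Nr2f2* itself, which is not among the 33, was at 346 to 542 CPM in CONV-R and 259 to 361 CPM in GF mice (Log2FC -0.31, SE 0.13, adjusted p = 0.163, edgeR's quasi-likelihood test). *Nr2f6*, a repressor related to both, had a Log2FC of -0.10 (SE 0.19). The testicular orphan receptors *Nr2c1* and *Nr2c2*, which pair with each other, had Log2FC of -0.06 (95% interval -0.31 to 0.19) and 0.16 (-0.19 to 0.50). The GF mice spanned only 44.6 to 47.9 CPM for *Nr2c1*. *Nr6a1*, the germ cell nuclear factor, had a Log2FC of 0.23 (SE 0.22), and *Nr2e3* of photoreceptors had 6 counts in all libraries.

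**Figure D3:**
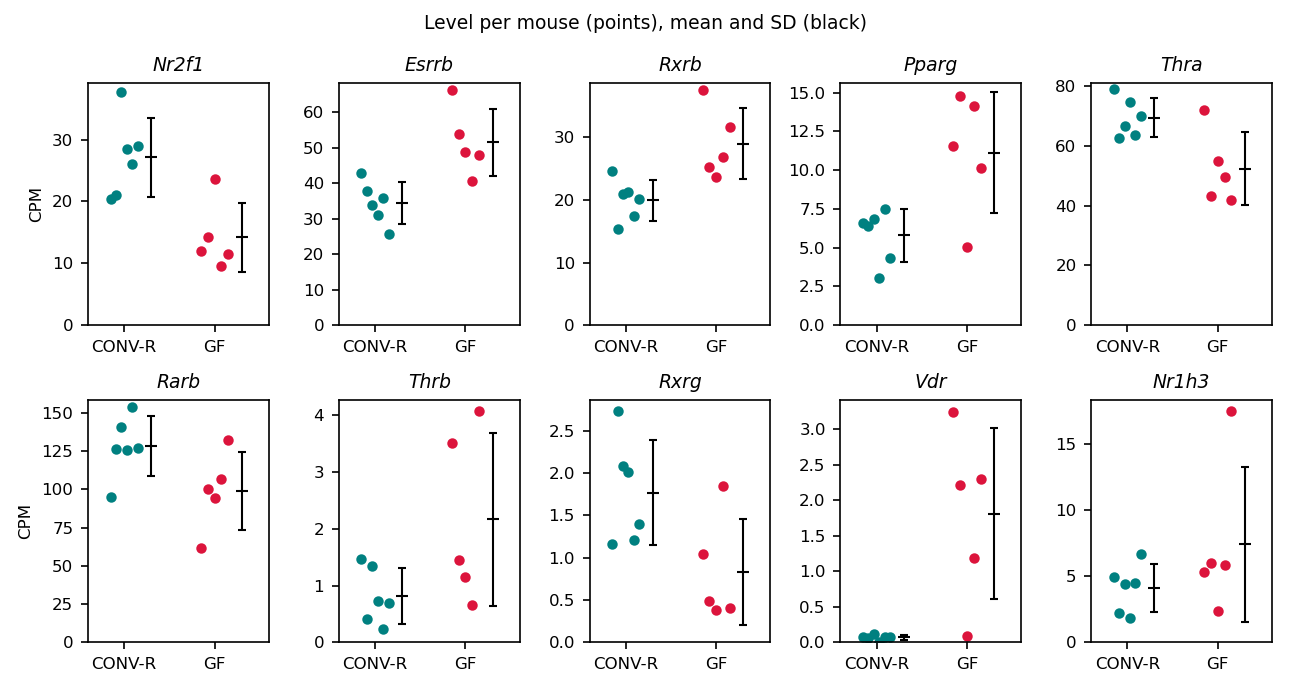
CPM per mouse (points) with the mean and SD of each group (black) for 10 receptors: the called *Nr2f1* and *Esrrb*, the 6 others with an unadjusted p under 0.05, and *Vdr* and *Nr1h3*. In every panel the ranges of the 2 groups overlap.

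Of the 6 retinoid receptor genes, *Rarb*, *Rxra* and *Rarg* had over 10 RPKM and *Rxrg* had 0.584 RPKM. Retinoic acid receptors (RARs) bind all-trans retinoic acid made from vitamin A, which the liver stores in stellate cells next to the sinusoids. The RAR beta gene *Rarb* is the textbook target of its own family. The 300 bases that RefSeq gives around its start (250 before to 50 after, GRCm38.p6) were searched for 2 half-sites in the same direction with 0 to 5 bases between them, on both strands. A half-site was NGNTCA with A or G in place of its first N and G or T in place of the other N. Such a pair occurred in 0.907% of the 32851 windows and, with a spacer of 5, in 0.0974%. Windows were given for 32 of the 33 receptor genes (52 windows), and 1 of these windows, that of *Rarb*, held a pair. Of 225 genes in the lists of partners and targets described below, 166 had windows (204 in all) and 2 held a pair, *Cyp26a1*, which encodes a retinoic acid degrading enzyme, and *Bco1*, which encodes the enzyme that splits beta-carotene. The sites are shown because all 3 genes belong to the retinoid system. Each is written 5′ to 3′ on the strand of the gene, with the half-sites in capitals; in *Cyp26a1* and *Bco1* these read as half-sites on the opposite strand.
Rarb, chr14:16575507-16575535, minus strand, spacer 5, ending 36 bases before the RefSeq start: gggaagGGTTCAccgaaAGTTCActcgca
Cyp26a1, chr19:37697770-37697798, plus strand, spacer 5, ending 15 bases before the start: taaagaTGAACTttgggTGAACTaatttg
Bco1, chr8:117095803-117095827, plus strand, spacer 1, ending 43 bases before the start: gggaacTGACCTtTGACCTaacaca
A match is a description of letters in these windows and not evidence of binding in these cells.

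*Rarb* was at 94.9 to 154 CPM (median 127) in CONV-R mice, and at 61.8, 100.2, 94.4, 107 and 132 CPM in the GF mice. The groups overlapped widely, since GF replicate 6 lay above 4 of the 6 CONV-R mice, and the Log2FC of -0.37 (SE 0.16) did not pass (adjusted p = 0.181, edgeR's quasi-likelihood test). *Cyp26a1*, which has the same kind of element, was at 1.94 to 7.61 CPM and 2.60 to 5.02 CPM, with a Log2FC of 0.10 (SE 0.39). *Rara*, the widespread RAR gene, had a Log2FC of 0.29 (SE 0.23) and *Rarg* of -0.31 (SE 0.20), and neither passed. *Rarb* supplied 56.9% ± 10.5 (SD, n = 6) of the summed RAR transcripts per kilobase in CONV-R and 51.1% ± 10.9 (SD, n = 5) in GF mice, ahead of *Rarg* and *Rara* in the mean of both groups.

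*Rxra* and *Rxrb* encode the common partners of most receptors described here. *Rxra* was at 55.2 to 97.9 CPM (median 71.5) in CONV-R mice, and at 121, 76.6, 97.5, 67.8 and 92.6 CPM in the GF mice (Log2FC 0.32, 95% interval -0.01 to 0.66). *Rxrb* was at 15.3 to 24.7 CPM (median 20.5) in CONV-R, and at 37.6, 25.2, 23.6, 26.8 and 31.6 CPM in GF mice. For *Rxrb*, 4 of the 5 GF mice lay above every CONV-R mouse, and the Log2FC of 0.54 (SE 0.16) missed the threshold (adjusted p = 0.0535, edgeR's quasi-likelihood test). It passed with DESeq2 (adjusted p = 0.0246) and limma voom (adjusted p = 0.0496), and in edgeR without CONV-R replicate 1 or GF replicate 4 (adjusted p = 0.0359 and 0.0448). *Rxrg*, the isotype of muscle and brain, had 172 counts in all; CONV-R mice held 1.16 to 2.73 CPM (median 1.70), and GF mice 1.04, 0.483, 0.381, 1.85 and 0.407 CPM (Log2FC -1.09, SE 0.49, adjusted p = 0.192, edgeR's quasi-likelihood test). *Rxra* made up 69.4% ± 4.40 (SD, n = 6) of the RXR transcripts per kilobase in CONV-R and 68.3% ± 4.40 (SD, n = 5) in GF mice.

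**Figure D4:**
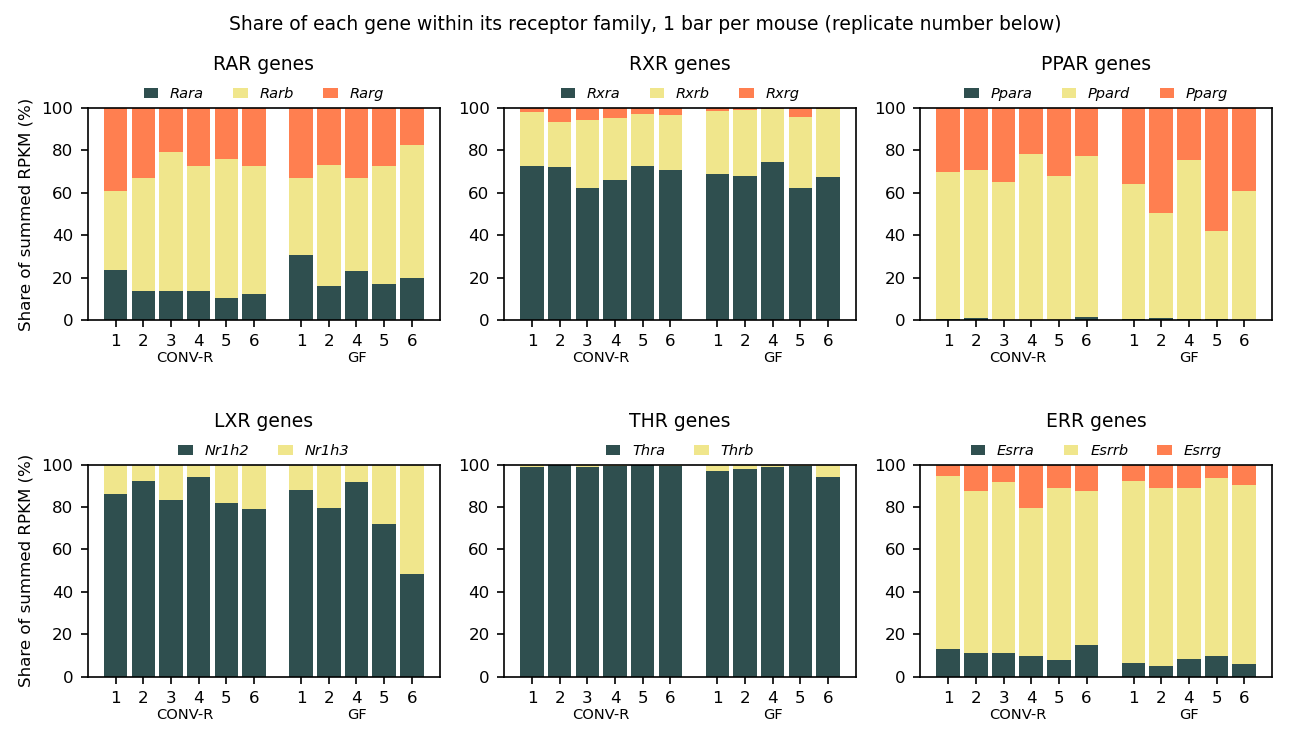
Share of each gene in the summed RPKM of its receptor family, 1 stacked bar per mouse with its replicate number. *Rarb*, *Rxra*, *Nr1h2*, *Thra* and *Esrrb* led their families in the mean of both groups, while the *Pparg* share ran from 21.9% to 34.8% in CONV-R and from 24.4% to 58.3% in GF mice.

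Among the fatty acid receptors, *Ppard*, expressed in most tissues, led with 71.1% ± 4.84 (SD, n = 6) of the PPAR transcripts per kilobase in CONV-R mice and 58.1% ± 13.1 (SD, n = 5) in GF mice. *Ppard* itself was at 36.1 ± 4.99 CPM (SD, n = 6) and 39.0 ± 9.47 CPM (SD, n = 5), with a Log2FC of 0.11 (95% interval -0.23 to 0.46). *Pparg*, the regulator of fat cells that is also active in macrophages and endothelium, was at 3.05 to 7.51 CPM (median 6.51) in CONV-R mice, and at 11.6, 14.8, 5.05, 14.1 and 10.2 CPM in the GF mice. All GF mice but replicate 4 lay above the CONV-R range. The Log2FC of 0.94 (SE 0.29) just missed the threshold (adjusted p = 0.0544, edgeR's quasi-likelihood test), and it passed with DESeq2 (adjusted p = 0.0199) and in edgeR without the filter (adjusted p = 0.0383) or without GF replicate 4 (adjusted p = 0.0138). Beside these values, the Kupffer cell sum without *Slc40a1* was 339, 455, 270, 292 and 1174 CPM in the same order of GF mice and 112 to 289 CPM in CONV-R mice, and its part in the *Pparg* values was not tested.

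The liver X receptors (LXRs) sense oxysterols and control cholesterol efflux. *Nr1h2* (LXR beta) held 86.0% ± 6.03 (SD, n = 6) of the LXR transcripts per kilobase in CONV-R mice and 76.01% ± 17.2 (SD, n = 5) in GF mice. Its Log2FC was -0.08 (95% interval -0.53 to 0.36). *Nr1h3* (LXR alpha), which Kupffer cells are known to express, was at 1.85 to 6.67 CPM in CONV-R and at 5.33, 5.99, 2.38, 5.82 and 17.5 CPM in GF mice. Replicate 6, the GF mouse with the highest Kupffer cell sum, stood alone, and the Log2FC of 0.83 (SE 0.43, adjusted p = 0.261, edgeR's quasi-likelihood test) was 0.25 without it.

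Receptors and regulators of bile acid handling were mostly weak. *Nr1h4*, the bile acid receptor FXR, had 257 counts in CONV-R and 93 in GF mice, at 2.56 to 4.58 CPM and at 1.04, 4.25, 1.90, 1.72 and 0 CPM (Log2FC -0.98, SE 0.55, adjusted p = 0.296, edgeR's quasi-likelihood test). Its Log2FC was -1.59 without GF replicate 2 and -1.63 with voom, and neither passed. *Nr0b2*, the repressor SHP that FXR induces in hepatocytes, had 1 count in CONV-R and 15 in GF mice. *Hnf4a*, which defines hepatocytes, was at 0.242 to 2.95 CPM and 0.264 to 4.16 CPM (Log2FC 0.86, 95% interval -0.46 to 2.18). By contrast *Nr5a2*, the liver receptor homologue that binds phospholipids, was at 101 to 127 CPM (median 111) in CONV-R mice, and at 93.8, 71.4, 141, 96.6 and 107 CPM in the GF mice. The GF mice lay on both sides of the CONV-R range, with a Log2FC of -0.14 (95% interval -0.45 to 0.16). All hepatocyte markers together summed to 41.8 to 125 CPM in the same mice, and the part of hepatocytes in the *Nr5a2* level was not tested.

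*Vdr*, the vitamin D receptor gene, had too few counts for the filter but stood apart. The CONV-R mice had 0 or 1 count each, 5 in all, and the GF mice had 50, 23, 1, 9 and 17 counts, 100 in all. In CPM this was 0 to 0.123 in CONV-R and 3.25, 2.22, 0.0952, 1.19 and 2.31 in GF mice. GF replicate 4 lay within the CONV-R range, so 4 of the 5 GF mice were high. The ratio of the summed, scaled counts was 28.7 (95% exact interval 11.9 to 90.2, which covers counting error only). In a fit without the filter, where 4.48% of 25329 genes passed, *Vdr* had a Log2FC of 4.49 (SE 0.84, adjusted p = 0.000207, edgeR's quasi-likelihood test), and it passed in all 11 fits with 1 mouse left out (adjusted p 8e-06 to 0.00243, edgeR's quasi-likelihood test). DESeq2 gave an adjusted p of 3.6e-05. *Vdr* had counts almost only in GF mice, and all these fits reuse the same CONV-R values near 0, so their p-values are not separate support. The cholangiocyte sum was 30.1, 19.3, 13.8, 17.3 and 46.5 CPM in GF replicates 1, 2, 4, 5 and 6. *Spp1* alone was at 11.98 to 14.6 CPM in the GF mice. It therefore supplied most of the sum in GF replicate 4, which left little for the other cholangiocyte markers there. The large vessel sum was 2725, 1598, 1580, 1496 and 1812 CPM in the same order. The part of bile duct and large vessel cells in the *Vdr* counts was not tested. The other untested receptors did not pass without the filter, and *Nr1i2*, *Nr1i3* and *Ppara* had 13 against 20, 13 against 7 and 10 against 9 counts in CONV-R and GF mice.

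Thyroid hormone receptors were supplied almost wholly by *Thra*, with 99.3% ± 0.404 (SD, n = 6) of the *Thra* and *Thrb* transcripts per kilobase in CONV-R and 97.4% ± 1.94 (SD, n = 5) in GF mice. *Thra* was at 62.8 to 79.2 CPM (median 68.5) in CONV-R mice, and at 72.1, 43.4, 55.0, 49.6 and 41.8 CPM in the GF mice. All GF mice but replicate 1 lay below the CONV-R range, and the Log2FC of -0.41 (SE 0.14) did not pass (adjusted p = 0.0928, edgeR's quasi-likelihood test), although it did without GF replicate 1 (adjusted p = 0.0179, edgeR's quasi-likelihood test). *Thrb*, the main isotype of hepatocytes, was at 0.242 to 1.47 CPM (median 0.711) in CONV-R mice, and at 3.51, 1.45, 1.14, 0.661 and 4.07 CPM in the GF mice (Log2FC 1.42, SE 0.55, adjusted p = 0.129, edgeR's quasi-likelihood test). Only GF replicates 1 and 6 were above the CONV-R range. *Rora*, which binds sterols and acts on clock genes, was at 57.4 ± 11.5 CPM (SD, n = 6) and 51.6 ± 10.3 CPM (SD, n = 5), with a Log2FC of -0.15 (95% interval -0.50 to 0.19).

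Some receptor exons overlap a gene on the opposite strand, and the strand setting of the counting was not given in the sources used here. *Nr1i3* shares 3304 of its 4414 exon bases with *Tomm40l*, *Rarb* shares 1793 of 5265 with *Top2b*, *Nr2c2* shares 4590 of 14935 with *Mrps25*, *Nr2f6* shares 1622 of 2983 with *Ocel1*, *Thra* shares 263 of 4614 with *Nr1d1* and *Nr2f1* shares 123 of 5093 with *A830082K12Rik*. If the counting ignored strand, reads from these stretches could not be told apart. *Top2b* had a Log2FC of -0.12 (SE 0.10).

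Genes that act with the receptors or are known as their targets were read from the same fit. Of 225 genes in 12 lists, 220 were listed and 139 tested, and 17 rose and 3 fell in GF mice (14.4%, against 7.48% of all genes), with a median Log2FC of 0.15. The CPM ranges did not overlap for 14 of the 139 (10.1%, against 5.59% of all genes), and 11 of the 20 called genes were among these. They include *Rbp7* and *Angptl4*, which were near 0 in CONV-R mice and had enough counts for the test only through the GF mice. Their ranges and their calls therefore say little, and both are counted among the 17. The lists were chosen with earlier results of these data known, so the shares above are a description and not a test of the targets. Many of these genes answer to other factors as well, so a list is named for its best known regulator only.

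Among LXR targets, *Abca1*, the cholesterol exporter, was at 61.1 to 133 CPM in CONV-R and 148 to 223 CPM in GF mice (Log2FC 1.00, SE 0.16, adjusted p = 0.00102, edgeR's quasi-likelihood test, Benjamini-Hochberg adjusted). *Mylip*, the ligase that degrades the LDL receptor, was at 180 to 281 and 361 to 501 CPM (Log2FC 0.85, SE 0.13). *Lpl*, lipoprotein lipase, was at 9.42 to 24.9 and 19.0 to 126 CPM (Log2FC 1.92, SE 0.39). These 3 of the 16 tested rose and 0 fell, with a list median of 0.35, while *Abcg1*, the other main cholesterol exporter, had a Log2FC of 0.19 (SE 0.18) and *Srebf1* 0.24 (SE 0.14), and neither passed. *Lpl* is also a macrophage gene, and 8 Kupffer cell markers were called higher in the same comparison. The part of Kupffer cells in the *Lpl* values was not tested.

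Of the 20 tested PPAR targets, 4 rose and 0 fell, with a median of 0.25. *Cd36*, which takes up fatty acids, was at 801 to 943 CPM in CONV-R and 1245 to 2118 CPM in GF mice (Log2FC 0.84, SE 0.12, adjusted p = 0.000514, edgeR's quasi-likelihood test). *Ucp2*, a mitochondrial carrier, was at 110 to 242 and 290 to 428 CPM, and *Pdk4*, which blocks pyruvate oxidation, at 54.1 to 96.8 and 129 to 167 CPM (Log2FC 1.15, SE 0.18, and 0.87, SE 0.14). *Angptl4*, the lipase inhibitor, was scarce at 0 to 0.808 and 0.949 to 2.40 CPM. It had enough counts for the test only through the GF mice, so its place among the 4 says little. Its call was lost without CONV-R replicate 2 or 4 or GF replicate 1 or 2 (adjusted p 0.0551 to 0.0645, edgeR's quasi-likelihood test). The ranges of *Cd36*, *Ucp2* and *Pdk4* did not overlap between the groups.

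Retinoid genes went both ways: of 16 tested, 2 rose and 1 fell, with a median of 0.10. *Fabp5*, which carries fatty acids and retinoic acid, was at 20.1 to 34.0 CPM in CONV-R and 42.2 to 56.6 CPM in GF mice (Log2FC 0.99, SE 0.15). *Rbp7*, a cellular retinol-binding protein gene, was at 0 to 0.565 and 1.33 to 11.9 CPM. It had enough counts for the test only through the GF mice, so its place among the 2 that rose says little. With CONV-R mice so near 0 its fitted Log2FC of 5.16 is uncertain: it was 6.76 without CONV-R replicate 5 and 2.25 with limma on the authors' values. *Hoxb4*, a homeobox gene that retinoic acid induces in embryos, was at 71.2 to 106 and 44.4 to 67.8 CPM (Log2FC -0.83, SE 0.14, adjusted p = 0.00205, edgeR's quasi-likelihood test). *Cyp26b1*, the degrading enzyme most abundant here, was at 813 to 2853 and 857 to 3187 CPM and did not pass (Log2FC 0.63, SE 0.30).

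Of 8 tested genes of thyroid hormone metabolism, transport and action, 3 rose and 0 fell, with a median of 0.36. *Klf9*, a Krüppel-like factor that thyroid hormone and glucocorticoids both induce, was at 21.7 to 34.8 CPM in CONV-R and 82.9 to 109 CPM in GF mice (Log2FC 1.62, SE 0.14, adjusted p = 2.2e-06, edgeR's quasi-likelihood test). *Thrsp*, a lipogenic response gene, was at 6.69 to 12.7 and 16.6 to 22.9 CPM (Log2FC 0.93, SE 0.19). The transporter gene *Slc16a10* was at 0.123 to 1.78 and 0.381 to 5.97 CPM (adjusted p = 0.0461, edgeR's quasi-likelihood test). The *Slc16a10* call held in 1 of 10 fits with 1 mouse left out, that without GF replicate 4, and was not tested without CONV-R replicate 6 (adjusted p up to 0.138, edgeR's quasi-likelihood test). It held in 3 of 7 other fits on all or shared mice. Among those where it was lost were limma voom (adjusted p = 0.141) and limma on the authors' values (adjusted p = 0.0799).

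The remaining lists held fewer calls. Of 4 tested targets of the xenobiotic receptors 2 rose: *Por*, the electron donor of cytochromes P450, at 19.4 to 34.1 and 28.7 to 48.7 CPM (Log2FC 0.69, SE 0.17), and *Abcb1a*, a drug exporter, at 0.388 to 3.34 and 1.95 to 8.69 CPM. *Por* lost its call without GF replicate 1 (adjusted p = 0.0519), and *Abcb1a* kept it in 4 of the 11 fits with 1 mouse left out, those without CONV-R replicate 5 or 6 or GF replicate 1 or 4 (adjusted p up to 0.109, edgeR's quasi-likelihood test). *Abcb1a* also lost it with voom (adjusted p = 0.0684) and limma on the authors' values (adjusted p = 0.0562). None (0) of 5 FXR targets, 5 genes of oxysterol and vitamin D metabolism and 10 ROR targets and clock partners passed with edgeR's quasi-likelihood test, DESeq2 or voom, and 0 had an unadjusted p under 0.05. The shares over all tested genes with edgeR were 7.48% and 23.0%. Of 8 oestrogen receptor targets *Xbp1* rose (Log2FC 0.77, SE 0.19) and *Nrip1* fell, and of 15 ERR targets *Tfam*, which maintains mitochondrial DNA, fell (Log2FC -0.49, SE 0.14, adjusted p = 0.0488, edgeR's quasi-likelihood test). *Nrip1*, a corepressor of many of these receptors, was at 236 to 369 CPM in CONV-R and 181 to 258 CPM in GF mice (Log2FC -0.46, SE 0.13, adjusted p = 0.0367, edgeR's quasi-likelihood test) and was the only one called of 29 tested coregulators. *Nrip1* and *Tfam* kept their calls in 3 and 2 of the 11 fits with 1 mouse left out, those without CONV-R replicate 3, GF replicate 2 or 6, and without GF replicate 4 or 5 (highest adjusted p 0.0849 and 0.121, edgeR's quasi-likelihood test). Of the nuclear receptors outside the 33, *Nr4a3*, an immediate early gene, rose (0.478 to 2.09 against 1.17 to 11.5 CPM, Log2FC 2.18, SE 0.50, adjusted p = 0.0129, edgeR's quasi-likelihood test), but not with voom (adjusted p = 0.0811).

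**Figure D5:**
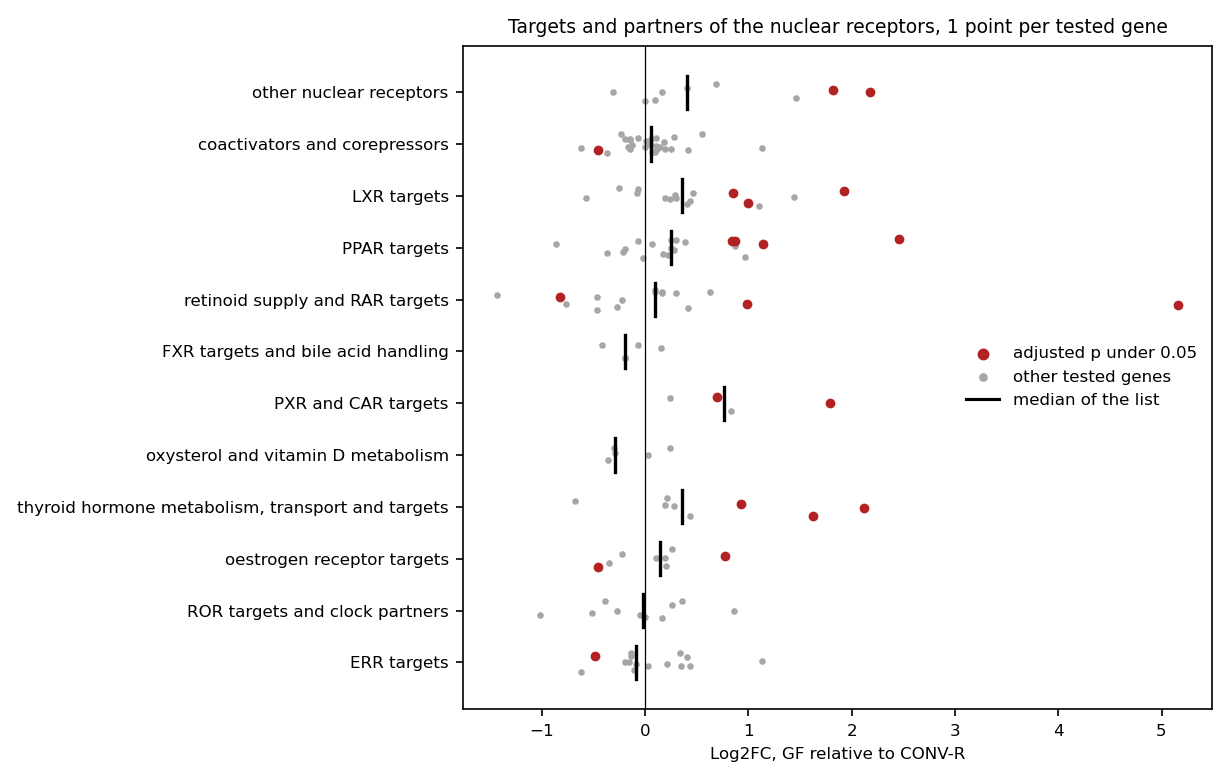
Log2FC of GF relative to CONV-R mice for the tested genes of 12 lists of receptor partners and targets; each point is a gene, red points passed the adjusted threshold and black bars are list medians. *Rbp7* stands farthest to the right, at a Log2FC fitted against a CONV-R group near 0, and *Klf9* (1.62) had the smallest adjusted p of the 20 called genes.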

How the data were processed

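The authors deposited raw counts per gene for 11 libraries, 1 per mouse, made with Trim Galore, STAR (genome GRCm38) and featureCounts. They removed 1 further GF library for its low number of mapped reads. The annotation release and strand setting are not given in the sources used here. They also deposited values on a log2 scale, normalized with the DESeq method, which served as an alternative here. Library kits are named differently in the labels and the paper, and amplification from little RNA can distort weak transcripts.

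The members and gene lists were chosen with earlier results of these data known. Counts were kept with filterByExpr, scaled by TMM and tested with the quasi-likelihood test of edgeR 4.0.16 in R 4.3.3, without covariates, with Benjamini-Hochberg adjustment over 12905 genes. The 11 libraries held 7242717 to 16164588 counts, and p-values measure the spread between mice. RPKM is CPM per kilobase of merged exons in GENCODE M21, matched for 29081 of 29307 genes. Such lengths exceed single transcripts. Promoter windows came from RefSeq (GRCm38.p6).

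For receptors with an unadjusted p under 0.05 and the 3 highest per kilobase, each GF value and the lowest, median and highest CONV-R value are given, and related genes are named where called, except 1 that is not reported here. *Vdr*, *Nr1h3* and other receptors were added for the roles they have or after their values were seen. Marker sums were compared by two-sided exact permutation tests over 462 splits of the mice. Alternatives were DESeq2 1.42.0 and its size factors, voom and limma 3.58.1, other filters, a replicate block and each mouse left out. Figures used matplotlib.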

Additional observations from a re-analysis of the deposited data

Results flagged for a closer look

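In 4 of the 50 groups checked, 1 mouse stood far from the others of its group by Dixon's test, and chance alone flags about 1 in 20 groups, here 2.5. *Nr1h3* was at 17.5 CPM in GF replicate 6, where the next GF mouse was at 5.99 CPM. *Hnf4a* was at 2.95 CPM in CONV-R replicate 6, where the next was at 0.964 CPM. *Rara* was at 49.0 CPM in CONV-R replicate 1, where the next was at 27.0 CPM. *Nr2f6* was at 12.6 CPM in CONV-R replicate 1, where the next was at 9.56 CPM. In GF replicate 6 the Kupffer cell markers without *Slc40a1* also had their highest sum, 1174 CPM against 455 CPM in the next GF mouse, and its part in the *Nr1h3* value was not tested.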

How the results depend on the processing

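Of the 33 receptors, 2 passed with all mice and edgeR, 5 with DESeq2 (adding *Pparg*, *Rxrb* and *Vdr*), 4 without the filter (adding *Pparg* and *Vdr*), 1 with limma on the authors' normalized values (*Nr2f1*) and 1 to 5 with each mouse left out. The count over all genes was 965, and 1527 with DESeq2 and 622 to 1260 with each mouse left out. A replicate block gave 5 receptors (adding *Pparg*, *Rxrb* and *Thra*) and 1101 genes, against 931 for the same libraries without it. Same-numbered mice correlated at -0.03 to 0.23, with 1 of 5 pairs over 0.1, and 2 of 5 correlated best with their own number. With only 5 pairs this check cannot settle whether the numbers pair the mice, and the main fit used no block. Small Log2FC changed sign when 1 mouse was left out: *Nr1h2* (-0.32 to 0.048 over these fits, and 0.029 without GF replicate 6), *Ppard* (-0.015 to 0.23) and *Nr2f6* (-0.15 to 0.0042). *Nr2f1* passed in all 8 other fits on all or shared mice, and *Esrrb* in 7 of 8.

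By exact permutation test the marker sums gave a two-sided p of 0.0455 for Kupffer cells (0.0286 to 0.143 with each mouse left out), 0.0411 for stellate cells (0.0317 to 0.119), 0.976 for lymphocytes (0.524 to 0.948, with the direction turned in 4 of 11 cases), 0.662 for hepatocytes (0.452 to 0.937, turned without GF replicate 1, p = 0.695), 0.442 for sinusoidal ECs, 0.491 for neutrophils and monocytes, 0.00216 for cholangiocytes and 0.00649 for large vessels. Adjusted over the 8 lists, the last 2 passed (0.0173 and 0.0260). Chosen after seeing the data, the exact permutation test of the Kupffer cell sum without *Slc40a1* gave p = 0.00433 and the stellate cell sum without *Hgf* and *Ecm1* p = 0.530. Weak genes such as *Vdr* are limited by counting error. The cause of these changes was not tested.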
